A study of Mus musculus with 8 samples.

Results

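The constitutive distal regions inside genes are 1674 stretches of accessible chromatin in hippocampal microglia. They were chosen by 3 criteria applied to peak lists from ATAC-seq, an assay in which a transposase cuts and tags open DNA. The peaks of 8 libraries were merged wherever they overlapped by at least 1 bp, which gave 52251 union regions. A region was taken when a peak overlapped it in all 8 libraries, when it lay over 1 kb from every annotated end of a protein-coding gene, and when its midpoint fell inside the span of at least 1 protein-coding gene. The 1674 regions are 3.2% of the union regions, 18.9% of the 8840 regions called in all 8 libraries (here called constitutive) and 7.76% of the 21576 distal regions inside genes. Because the choice used the calls themselves, their presence in both groups is not a result.

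The libraries came from microglia of the mouse hippocampus at an age of 3 weeks, 4 from control mice (Ctrl) and 4 from mice labelled FGR in a series on intrauterine growth restriction. All 8 carry the genotype Tmem119-tdTomato+/-, a reporter driven from the microglial gene Tmem119, so the reporter does not distinguish the groups. The labels do not say how growth was restricted, how many animals made a library or which sex they were. Nothing in them says that replicates came from separate animals, so p-values measure the spread between these libraries, which may be technical.

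The lists held 10862 to 24195 peaks in Ctrl and 23327 to 29501 in FGR, and no source used here gives their read depth. Ctrl 1 and Ctrl 2 stood apart, with median peak widths of 566 and 522 bp over the whole list against 353 to 386 bp elsewhere, and their summits in these regions were displaced by 135 to 140 bp (medians) against the remaining 6 libraries. FGR 1 and 3 placed 9.38%, and FGR 2 and 4 placed 9.68%, of these regions' summits at the identical base, against 1.61% to 3.41% for the other pairs among FGR 1 to 4, Ctrl 3 and Ctrl 4. Wherever an SD is given, replicates 1 and 3 were averaged into 1 sample, and replicates 2 and 4 into another (n = 2 pairs), although neither Ctrl pair shared an identical summit. Replicates 1 and 2 are labelled with an age field that replicates 3 and 4 lack, and these are called label sets 1 and 2. As a check on the cell type, the homeostatic microglia list had a constitutive region at a gene end in 9 of 23 genes. Tmem119, Cx3cr1 and Sall1 were among them, while P2ry12, Csf1r and Trem2 were among those without. The share over all protein-coding genes was not worked out. The corresponding counts were 1 of 19 for neurons, 1 of 11 for astrocytes, 1 of 13 for the oligodendrocyte lineage, 1 of 11 for endothelial and mural cells, 0 of 12 for border macrophages and monocytes and 0 of 12 for lymphocytes.

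Accessible sites inside a gene and away from its ends are usually enhancers, which bind transcription factors such as PU.1, MEF2 and RUNX proteins in microglia, or promoters of shorter transcripts that begin within the gene. Enhancers tend to be open in the cell types that use them, whereas promoters rich in CG dinucleotides tend to be open in many cell types. A peak list shows where open chromatin was detected, not which of these functions a site has.

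Annotated transcript starts lay under many of these regions. RefSeq start windows, each reaching from 250 bases before to 50 bases after an annotated start, were given for the chromosomes that hold 1627 of the 1674 regions. Of these 1627, 522 (32.1%) overlapped at least 1, and 493 of these (30.3% of 1627) lay over an internal start of the host gene itself. The other 29 (1.78%) lay over the start of another gene, in each case a long noncoding RNA gene, and 1105 (67.9%) lay over none. A region is said to lie over a start when it overlaps the window by at least 1 bp, and in 514 of the 522 (98.5%) the start base itself was inside the region. The host genes with windows had more than 1 window in 37.6% of cases, against 15.8% of all protein-coding genes with windows. Part of this excess can follow from the choice, since a region over an internal start makes its gene a host. The hosts were also longer genes, with a median span of 56.7 kb against 17.2 kb. The stretches printed here are the 200 bases before 7 internal starts whose start base lies inside the region, chosen because the host genes stand on the lists of engulfment, immune signalling, transcription factor and inflammatory genes used below. They are GRCm38.p6 (mm10) sequences credited to RefSeq, written 5′ to 3′ on the strand of the gene. Capitals mark matches on either strand to GGAAGT, the core bound by ETS factors such as PU.1 and FLI1, or to GGGCGG, the GC box.
Dock10: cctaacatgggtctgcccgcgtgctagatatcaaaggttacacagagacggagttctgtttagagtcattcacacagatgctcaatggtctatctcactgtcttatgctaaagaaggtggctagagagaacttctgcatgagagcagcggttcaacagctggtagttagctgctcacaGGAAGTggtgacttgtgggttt
Apbb1ip: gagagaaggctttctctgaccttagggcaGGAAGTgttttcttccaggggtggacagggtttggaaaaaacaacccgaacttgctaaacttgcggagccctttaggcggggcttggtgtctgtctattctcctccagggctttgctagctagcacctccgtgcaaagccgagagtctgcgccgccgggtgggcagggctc
Arhgap25: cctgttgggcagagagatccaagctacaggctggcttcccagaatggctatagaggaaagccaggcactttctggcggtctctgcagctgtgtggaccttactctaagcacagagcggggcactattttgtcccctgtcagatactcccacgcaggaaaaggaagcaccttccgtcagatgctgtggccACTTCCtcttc
Rasgrp3: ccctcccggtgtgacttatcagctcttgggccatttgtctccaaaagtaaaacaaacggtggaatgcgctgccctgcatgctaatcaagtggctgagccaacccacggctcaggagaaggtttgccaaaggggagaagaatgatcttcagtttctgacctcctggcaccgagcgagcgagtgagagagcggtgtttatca
Runx1: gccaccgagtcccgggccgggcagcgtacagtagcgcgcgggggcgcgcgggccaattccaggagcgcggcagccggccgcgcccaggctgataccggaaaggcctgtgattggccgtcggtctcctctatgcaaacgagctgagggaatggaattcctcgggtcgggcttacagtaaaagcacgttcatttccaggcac
Mef2a: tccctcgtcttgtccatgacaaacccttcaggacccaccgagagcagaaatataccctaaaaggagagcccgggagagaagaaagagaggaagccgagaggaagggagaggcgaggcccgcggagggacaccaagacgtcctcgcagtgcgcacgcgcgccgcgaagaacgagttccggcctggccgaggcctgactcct
Nfkb2: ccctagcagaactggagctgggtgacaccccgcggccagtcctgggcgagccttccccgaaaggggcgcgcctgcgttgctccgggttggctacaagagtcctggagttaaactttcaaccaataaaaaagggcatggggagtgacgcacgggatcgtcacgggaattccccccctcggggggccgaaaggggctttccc
The Dock10 stretch is chr1:80665353-80665552 on the minus strand, the Apbb1ip stretch chr2:22774127-22774326 on the plus strand and the Arhgap25 stretch chr6:87496328-87496527 on the minus strand. Each of these 3 engulfment genes has 1 match to the ETS core and none to the GC box. The stretch of Itgav, an actin and adhesion gene whose stretch is not printed here, has 2 matches to the ETS core. The Rasgrp3 stretch is chr17:75465338-75465537 on the plus strand, and neither motif has a match in it. The Runx1 stretch is chr16:92697330-92697529 and the Mef2a stretch chr7:67372859-67373058, both on the minus strand. Neither motif matched there, but they hold 22 and 18 CG dinucleotides, against 4 in Dock10 and 4 in Arhgap25. The Nfkb2 stretch, chr19:46304537-46304736 on the plus strand, has no match to either motif and 14 CG dinucleotides. The absence of a match says only that these letters are not in these 200 bases.

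Inside genes, distal regions called in more libraries lay over a start more often, apart from a dip at 4 libraries. The share was 1.85% for regions called in 1 library and 4.18%, 6.57%, 5.85%, 8.14%, 10.8% and 12.4% for those called in 2 to 7, and then 32.1% for those called in all 8. Of the 1210 regions called in 7 libraries, 1029 lacked only Ctrl 2, the shortest list. The step from 7 to 8 thus mostly contrasts regions without and with a call in Ctrl 2. Between genes the share for regions called in all 8 was 10.3%, and at gene ends, where most first starts lie, it was 83.0%. Regions called more often were also longer, with a median of 242 bp for distal regions inside genes called once, 629 bp for those called 7 times and 808 bp for the constitutive ones. Counting a start only within 500 bp of the midpoint, which does not favour long regions, gave 2.99%, 12.2% and 31.3% for those called once, 7 times and 8 times. These are shares over regions, which are not replicates, and carry no test.

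**Figure D1:**
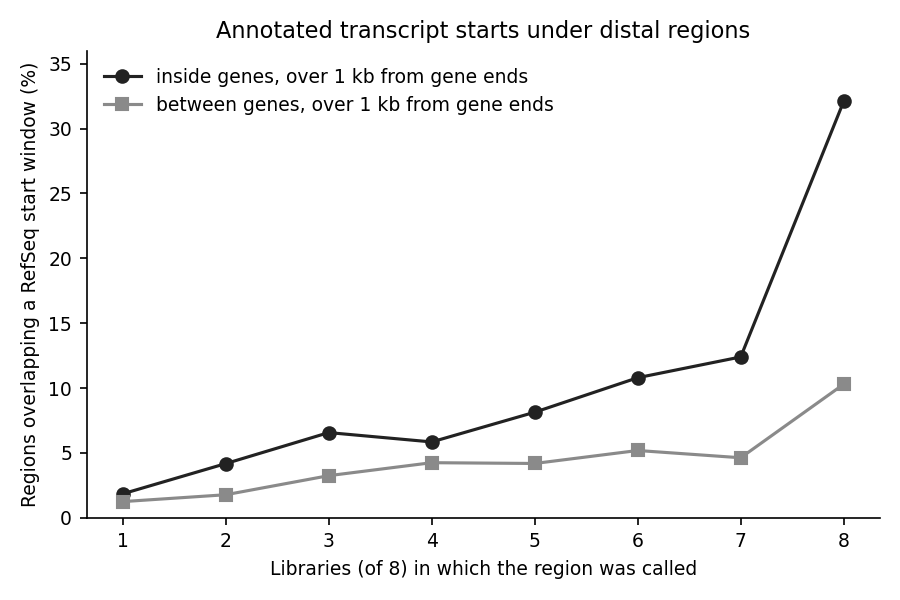
The percentage of distal regions that overlap a RefSeq start window (vertical axis) by the number of libraries that called the region (horizontal axis), inside genes (circles) and between genes (squares). Inside genes the share is 1.85% at 1 library, 12.4% at 7 and 32.1% at 8.

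The regions over a start differed in shape and place from those without one. Their median length was 1010 bp where the start was the host gene's own, against 750 bp with no start, and their median distance to the nearest gene end was 4993 bp against 15071 bp. Along the host gene, 49.7% of the 509 regions over a start that could be placed lay in the first 20% of its span and 2.55% in the last 20%. Of 870 placed regions without a start, 20.3% lay in the first and 15.2% in the last 20%. Regions called in 1 library were spread almost evenly, with 17.2% and 21.3% there.

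**Figure D2:**
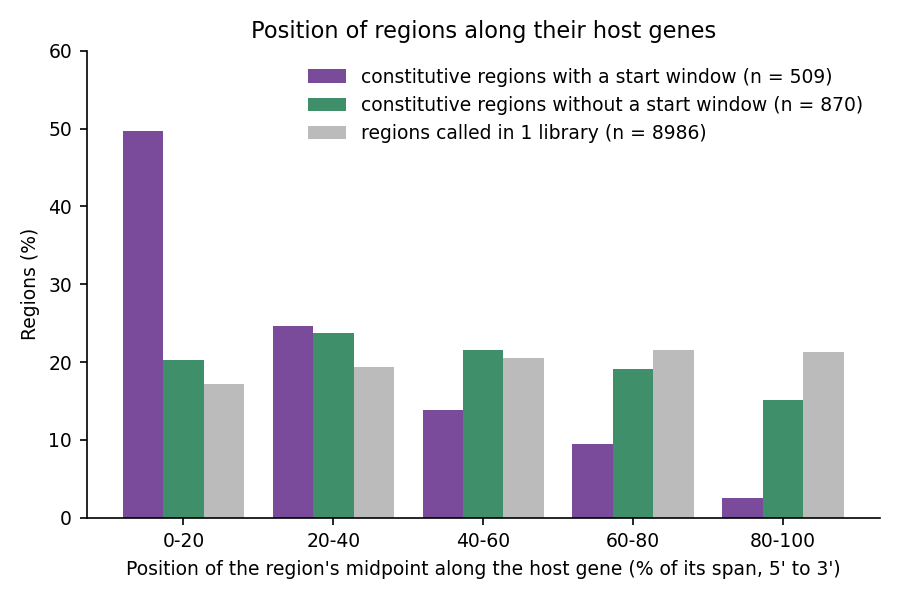
Position of region midpoints along the host gene, in bins of 20% of its span from 5' to 3' (horizontal axis), as a percentage of each set (vertical axis). Constitutive regions over a start (purple) gather in the first bin with 49.7%, whereas those without a start (green, 20.3%) are closer to regions called in 1 library (grey, 17.2%).

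Peak summits lay just upstream of these internal starts in 6 of the 8 libraries. Over 403 regions with a single window, the median summit was 40, 40, 38, 35, 40 and 38 bp upstream of the start in Ctrl 3, Ctrl 4 and FGR 1 to 4, and 56.1% to 60.5% of summits lay within 100 bp of it. In Ctrl 1 and Ctrl 2 the median summit was 27 and 32 bp downstream, and 33.7% and 33.0% lay within 100 bp. The histograms of those libraries have a dip at the start and a shoulder on each side, which is the shift of summits described above seen at a fixed landmark. Whether those libraries were processed in another way was not tested.

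**Figure D3:**
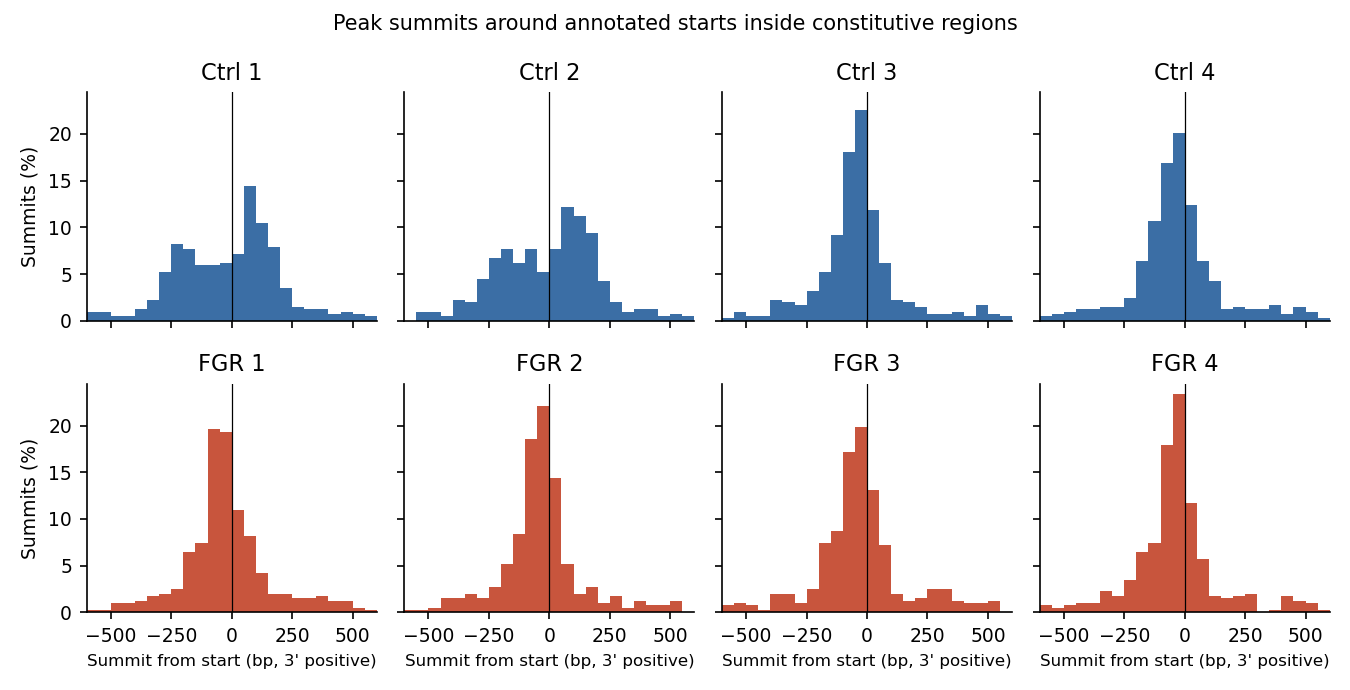
Distance of the summit of the strongest peak from the annotated start, in bins of 50 bp (horizontal axis, positive towards the 3' side), as a percentage of 403 constitutive regions in each library (vertical axis). Summits form 1 mode just upstream of the start in 6 libraries, and shoulders on both sides of it in Ctrl 1 and Ctrl 2.

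The windows under these regions were as rich in CG dinucleotides as those at constitutive gene ends. The 676 windows had a median GC content of 64.0% (quartiles 57.0% and 69.8%) and 25 CG dinucleotides in 300 bases, close to the 63.7% and 25 of the 6793 windows under constitutive gene-end regions. The 910 windows under distal regions inside genes called in 1 to 7 libraries had 59.3% and 15, and the 20129 windows under no region had 48.0% and 4. The GC box, GGGCGG on either strand, occurred in 67.8% of the 676 windows, 74.3% of those under gene-end regions and 35.7% of all 32851 windows. The ETS core GGAAGT occurred in 26.3%, 30.4% and 23.8%, and the longer PU.1 form GAGGAAGT, which contains that core, in 2.07%, 3.02% and 3.2%. Motifs of other macrophage factors were less common under these regions than in all windows, with RUNX (TGTGGT) in 12.1% against 16.8%, AP-1 (TGANTCA) in 4.59% against 7.81%, IRF (GAAA, 2 bases of any kind, GAAA) in 1.48% against 3.44% and MAF (TGCTGA) in 14.6% against 19.5%. MEF2 (CTA, 4 bases of any kind, TAG) occurred in 3.25% against 3.69%, and the CTCF core (CCA, 2 bases, AG, 2 bases, GGC) in 3.25% against 2.43%. Windows of 1 gene can overlap each other, and base composition alone changes such shares, so no test was made. The 1105 regions without a start could not be read, as no genome sequence was used here.

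The 1674 regions lay in 1387 host genes, 6.34% of the 21883 protein-coding genes. Of these genes 1171 held 1 region, 156 held 2, 42 held 3, 13 held 4 and 5 held 5. Long genes held them more often, 0.219% of the 5472 genes that span at most 5.67 kb, 3.13% up to 17.2 kb, 7.18% up to 44.3 kb and 14.8% beyond, and the median host spanned 56.7 kb against 17.2 kb for all protein-coding genes. Their distance to the nearest gene end ran from 1002 to 644611 bp with a median of 11145 bp, and 82 (4.9%) lay over 100 kb away. Near the limit of 1 kb, regions in Exoc3, Fes and Zfp46 at 1002, 1008 and 1014 bp were just inside, and those in Aldh3b1, Taok2 and Klf10 at 994, 994 and 992 bp just outside. The limit on libraries was set by 1 list above all, since of the 1210 distal regions inside genes called in 7 libraries 1029 lacked only Ctrl 2, the shortest list. Without Ctrl 2 the same rule finds 2706 regions.

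Maml3, Slc43a2, Ston2, Zfhx3 and Zmiz1 held 5 regions each. Maml3 encodes a coactivator of Notch signalling, Slc43a2 an amino acid transporter, Ston2 an endocytic adaptor, Zfhx3 a zinc finger homeodomain factor and Zmiz1 a coregulator of transcription. Slc43a2 spans 47.7 kb, less than the median host, and held 5 of its 8 distal regions in this class, whereas Zfhx3 spans 682.0 kb and held 5 of 33. Dnmt3a, the de novo DNA methyltransferase, held 4 of 14, and P2ry6, a nucleotide receptor that microglia use in phagocytosis, held 4 of 8 within 37.9 kb. Among the other genes with 4 were Fgd3, Ldlrad4, Nav1, Ninj2, Smad3, Trio, Ubash3b and Vav2. In all, 140 regions (8.36%) lay within 10 kb of another one. A microRNA hairpin lay in 4 of them, Mir6546 in Fcgr3, Mir7653 in Tlcd1, Mir6993 in Fads1 and Mir5620 in Clcn4.

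Gene lists for microglia, for pathways they use and for other cell types held these regions to different extents, and 6.34% of all protein-coding genes, or 14.8% of those longer than 44.3 kb, are the shares to set beside them. Of 23 engulfment and Rac signalling genes 14 (60.9%) held at least 1 region, as did 10 of 20 immune receptor signalling genes, 7 of 18 microglia transcription factors, 7 of 18 lysosome and lipid genes, 6 of 23 homeostatic microglia genes (26.1%), 6 of 22 inflammatory genes, 6 of 19 actin and adhesion genes and 4 of 14 genes of TGF-beta signalling. Of the lists for other cell types, 0 of 19 neuronal genes held one, although they have a median span of 422.0 kb and 13 of them hold some distal region. No host was found among 13 oligodendrocyte lineage, 12 border macrophage and monocyte or 12 lymphocyte genes. Those with a host were Slc1a3, an astrocyte glutamate transporter, with 2 regions, and the endothelial cadherin gene Cdh5 with 1. The lists differ in gene length, and these counts carry no test. Annotated starts, of the host or of another gene, lay under few of the listed regions. They lay under 3 of 21 in the engulfment list, 3 of 14 in the transcription factors and 0 of 7 in the homeostatic list. The last 7 include the Csf1r region on chromosome 18, which had no windows, so that region was not examined for a start.

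At the genes that define microglia, regions were found in P2ry12, Cx3cr1, Csf1r, Spi1, Mef2c, Runx1 and Elmo1, and none in Tmem119, Sall1, Irf8, Trem2 or Tgfbr1. Strength is given here as the percentile of the region's strongest peak by −log10 q in its library's list, where 100 is the strongest peak. Csf1r, the receptor for the survival factor CSF1, held the strongest of them, chromosome 18 from 61107748 to 61109108, at list percentiles of 95.3 to 99.5 with a median of 98.0. It lies 2176 bp inside the gene, while no constitutive region lay at an annotated end of Csf1r. Mef2c, a transcription factor of microglia and neurons, held 3, the strongest at 83571895 to 83572726 of chromosome 13 with a median of 96.9. Cx3cr1, the fractalkine receptor, held 1 on chromosome 9 at 120054631 to 120055416 with a median of 86.3, and Spi1, which encodes PU.1, held 1 on chromosome 2 at 91096348 to 91097309 with a median of 86.1. P2ry12, the purinergic receptor of surveying microglia, held 2 on chromosome 3, at 59228574 to 59229333 and 59260739 to 59261295, with medians of 85.0 and 88.7. Both also lie inside Med12l, which overlaps P2ry12. The Runx1 region, 92697150 to 92699056 of chromosome 16, covers the internal start printed above and had a median of 73.8. The single region of Elmo1, a partner of DOCK proteins in Rac activation, lies 222567 bp from the nearest gene end and had a median of 77.2.

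The most uniformly strong regions, those whose lowest percentile in any list was highest, were in none of the genes listed here. They lay in Zc3h7a, Aida, the overlapping genes Cmss1 and Filip1l, Cdk8, Cadm1, Rfx1, Hdac4 and Chd9, whose lowest list percentile in any library was 97.2 in Chd9 and higher in the others. Those in Rfx1 and Hdac4 lay over internal starts of the host gene. Cdk8 encodes a kinase of the Mediator complex, Hdac4 a histone deacetylase, Rfx1 a transcription factor and Chd9 a chromatin remodeler. No filter for artefact-prone or poorly mappable loci was applied here, and the part of such signal in these regions was not tested.

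To compare the groups, each region was ranked by −log10 q among the 8840 constitutive regions of its own library, so that the median of all regions is 50 in each list and a rise of 1 class is offset by a fall of others. The median percentile of the 1674 regions was 40.52, 40.39, 45.92 and 39.91 in Ctrl 1 to 4 and 47.71, 48.14, 48.72 and 48.57 in FGR 1 to 4. All FGR libraries lay above all Ctrl libraries, Ctrl 3 being the highest of the latter. The means were 41.7 ± 2.17 and 48.3 ± 0.101 (SD, n = 2 pairs), a difference of 6.6 points (exact two-sided permutation p = 0.0286, the smallest that 70 assignments allow, adjusted p = 0.0571 over 4 single values). Without Ctrl 1 and 2 it was 5.37 points (exact p = 0.0667, the smallest possible there), and after averaging the pairs 0.333 is the smallest exact p possible. The 1000 strongest peaks of each list fell in 97, 98, 115 and 111 of these regions in Ctrl and in 135, 126, 136 and 145 in FGR. The groups again did not overlap (difference 30.2 regions, exact p = 0.0286, adjusted p = 0.0571). The median width of their peaks was 613, 506, 493 and 558.5 bp in Ctrl and 531, 489, 561.5 and 528 bp in FGR, and the groups overlapped (exact p = 0.657).

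The difference was not peculiar to sites inside genes. Constitutive regions between genes had medians of 37.6, 35.8, 42.2 and 38.2 in Ctrl and 44.8, 47.0, 48.6 and 49.9 in FGR, which is 9.14 points higher (exact p = 0.0286, adjusted p = 0.0409 over 10 values added after the data were seen). Constitutive gene-end regions had 55.5, 55.7, 52.8 and 55.2 in Ctrl and 51.7, 51.2, 51.1 and 50.6 in FGR, a difference of -3.66 points (exact p = 0.0286, adjusted p = 0.0409). The margin by which regions inside genes exceeded those between genes was 2.89, 4.54, 3.75 and 1.69 points in Ctrl and 2.88, 1.12, 0.0933 and -1.37 in FGR, and its difference between the groups did not pass the test (exact p = 0.0571, adjusted p = 0.0714). Over whole lists, regions inside genes ranked 4.84 percentile points below gene-end regions on average (exact sign-flip p = 0.00781, adjusted p = 0.0156, lower in 8 of 8 libraries). By library the margin was -9.8, -13.5, -3.48 and -6.71 points in Ctrl 1 to 4 and -1.68, -1.6, -0.882 and -1.01 in FGR 1 to 4. Its difference between the groups was not tested. Averaged over libraries, that margin was -8.5 by the authors' fold, -2.82 with −log10 q of at least 5 and -2.56 without Ctrl 1 and 2. Regions inside genes ranked 1.28 points above regions between genes (exact sign-flip p = 0.0391, adjusted p = 0.0391, higher in 7 of 8), with means of 2.24 in Ctrl and 0.315 in FGR. Ranked by the authors' fold enrichment, the latter difference turned to -0.753 (exact p = 0.0938), and with 1 library left out it was 0.869 to 1.56 with exact p from 0.0156 to 0.0781, over 0.05 without any 1 of Ctrl 1 to 4 or FGR 1.

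By rank among constitutive regions, those without an annotated start stood higher in FGR and those over a start lower. The median without a start was at percentile 36.6, 35.5, 44.0 and 34.7 in Ctrl and 47.1, 48.2, 49.4 and 49.6 in FGR, a difference of 10.9 points (exact p = 0.0286, adjusted p = 0.0409). Regions over a start had 48.9, 52.4, 51.6 and 48.8 in Ctrl and 48.4, 48.3, 47.7 and 47.1 in FGR, a difference of -2.54 points (exact p = 0.0286, adjusted p = 0.0409). The margin of regions over a start above those without was thus 12.3, 16.9, 7.62 and 14.1 points in Ctrl 1 to 4 and 1.33, 0.124, -1.67 and -2.48 in FGR 1 to 4. This margin itself differed between the groups by -13.4 points (exact p = 0.0286, adjusted p = 0.0409), 12.7 ± 3.91 in Ctrl against -0.674 ± 0.714 in FGR (SD, n = 2 pairs). Ranked by the authors' fold it was -6.93 (exact p = 0.0857), with the region covered to 50% by a peak -11.6 (exact p = 0.0571) and without Ctrl 1 and 2 -11.5 (exact p = 0.0667, the smallest possible there). With lists cut to equal length it was -13.5 (exact p = 0.0286). As a ratio over local background, the median deposited fold of regions without a start was 3.97, 3.95, 4.93 and 4.15 in Ctrl and 5.08, 5.07, 4.86 and 4.92 in FGR, with Ctrl 3 inside the FGR range. For regions over a start it was 4.4, 4.33, 5.22 and 4.62 against 5.34, 5.42, 5.15 and 5.13, where Ctrl 3 lay inside the FGR range too. On this scale both kinds stood higher in all FGR libraries than in Ctrl 1, 2 and 4, so the opposite directions are those of ranks within the constitutive set. The part that background level or read depth has in the difference was not tested.

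**Figure D4:**
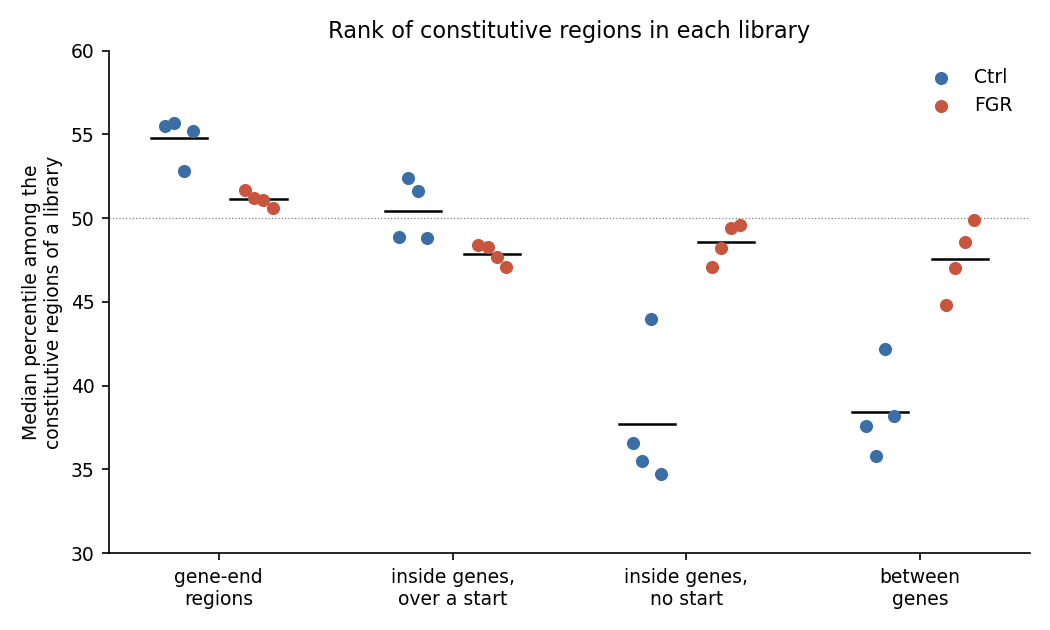
Median percentile of each class among the 8840 constitutive regions of a library (vertical axis, dotted line at 50), with 1 point per library for Ctrl (blue) and FGR (red) and bars at the means of 4 libraries. Regions inside genes without a start sit between 34.7 and 44.0 in Ctrl and between 47.1 and 49.6 in FGR, whereas those over a start sit lower in FGR, at 47.1 to 48.4, than in Ctrl.

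Region by region, limma found no difference past an adjusted p of 0.05, in these regions or elsewhere (0.0% of 8840 called, smallest adjusted p = 0.0615). At an unadjusted p under 0.05, 250 of the 1674 regions (14.9%) ranked higher in FGR and 89 (5.32%) lower, against 8.47% and 7.31% of all 8840. The 4 FGR values lay above the 4 Ctrl values in 153 regions (9.14%, against 5.14% of all) and below them in 50 (2.99%, against 4.03%). Of the 1105 regions without a start, 209 (18.9%) were higher at an unadjusted p under 0.05 and 34 (3.08%) lower, and of the 522 over a start 36 (6.9%) were higher and 50 (9.58%) lower. Regions between genes had 17.2% higher and 4.32% lower. On other scales limma did make calls. With percentiles turned into normal scores it called 19 of the 1674 regions higher (1.14%, against 0.633% of all) and 5 lower (0.299%, against 0.181%). With the log2 read pileup at the summit, recovered from the deposited fold and p and centred on each library, it called 88 higher (5.26%, against 2.64%) and 20 lower (1.19%, against 1.26%).

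The 3 regions with the smallest p among those higher in FGR lay in Plcl2, Memo1 and Trit1, and none lay over a start. The Plcl2 region, 50529958 to 50530596 of chromosome 17, ranked at percentiles 8.4, 1.9, 3.8 and 5.7 among constitutive regions in Ctrl 1 to 4 and at 54.6, 54.6, 44.0 and 71.7 in FGR 1 to 4. The groups lay far apart, by 51.3 ± 9.08 points (SE, limma adjusted p = 0.0699). Plcl2 encodes a phospholipase C-like protein that lacks catalytic activity. In the Memo1 region, 74195889 to 74196370 of the same chromosome, the values were 8.5, 3.3, 18.7 and 3.6 in Ctrl and 58.5, 49.7, 61.8 and 54.8 in FGR (47.7 ± 9.04, limma adjusted p = 0.0699). Memo1 takes part in cell motility. For Trit1, a tRNA-modifying enzyme, the region at 123018888 to 123019417 of chromosome 4 had 7.2, 3.9, 11.95 and 27.1 in Ctrl and 69.2, 62.6, 79.4 and 57.6 in FGR (54.7 ± 10.5, limma adjusted p = 0.0699). All 3 passed as log2 pileup, with differences of 0.67, 0.61 and 0.64 (limma adjusted p = 0.00749, 0.0156 and 0.00393).

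Among those lower in FGR the smallest p-values belonged to Nsmaf, Pura and Nrg2. The Nsmaf region, 6415148 to 6416019 of chromosome 4, was among the strongest in Ctrl at 95.6, 92.6, 97.1 and 95.0 and stood at 81.8, 80.8, 74.0 and 80.2 in FGR (-15.9 ± 3.35, limma adjusted p = 0.0858). Nsmaf encodes an adaptor between a tumour necrosis factor receptor and neutral sphingomyelinase. The Pura region, 36286138 to 36287872 of chromosome 18, had 62.1, 74.0, 62.7 and 82.7 in Ctrl and 19.4, 16.8, 18.5 and 31.3 in FGR (-48.8 ± 10.8, limma adjusted p = 0.0968). Pura encodes a nucleic acid-binding protein, and this region passed as log2 pileup (-0.64, limma adjusted p = 0.00371), whereas those of Nsmaf and Nrg2 did not (limma adjusted p = 0.135 and 0.059). For Nrg2, a ligand of ErbB receptors, the region at 36017975 to 36018763 of chromosome 18 had 39.8, 42.6, 47.3 and 36.6 in Ctrl and 16.4, 6.9, 4.3 and 0.2 in FGR (-34.6 ± 7.79, limma adjusted p = 0.0968). In each of the 3 the groups were separate. For these 6 regions limma gave adjusted p-values of 0.179 to 0.221 without Ctrl 1 and 2, and of 0.446 with pairs averaged.

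Engulfment and Rac signalling genes held 21 regions in 14 genes, 18 of them without a start, and 16 had a higher mean in FGR. At an unadjusted p under 0.05, 11 (52.4%) were higher and 1 (4.76%) lower, against 14.9% and 5.32% of all 1674 regions and 18.9% and 3.08% of those without a start. The groups did not overlap in 9 higher (42.9%) and 1 lower (4.76%), against 9.14% and 2.99% of all 1674 and 5.14% and 4.03% of the 8840 constitutive regions. Whether this list differs from the others was not tested. The median difference was 22.8 points, against 3.67 for all 1674 regions. These genes were listed with earlier results of these data known, so the counts are not independent support, and no region reached an adjusted p under 0.05 by limma on percentiles. Regions of 1 gene share their locus and are not separate observations.

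Mertk, a receptor with which phagocytes take up dying cells, held 2 regions, both separate between the groups. The first, 128770929 to 128771842 of chromosome 2, had percentiles of 11.7, 2.1, 34.4 and 3.1 in Ctrl and 43.2, 53.1, 53.6 and 51.0 in FGR (37.4 ± 9.71, limma adjusted p = 0.116). The second, 128796240 to 128796994, had 22.2, 49.6, 23.3 and 13.01 in Ctrl and 61.2, 76.2, 55.9 and 79.1 in FGR (41.1 ± 11.8, limma adjusted p = 0.131). Apbb1ip, an adaptor that links Rap1 to integrin activation, held 3. The one over the internal start printed above, 22773386 to 22774828 of chromosome 2, had 74.1, 56.5, 70.4 and 72.4 in Ctrl and 87.6, 96.2, 91.2 and 89.4 in FGR (22.8 ± 5.4, limma adjusted p = 0.0968). The second was also separate (34.3 ± 9.52, limma adjusted p = 0.125), while in the third the groups overlapped (-3.19 ± 12.4). In Dock10, a gene of the DOCK family of exchange factors, the region over the internal start lies at 80665038 to 80665689 of chromosome 1. That region had 14.7, 16.5, 7.3 and 19.5 in Ctrl and 63.7, 54.4, 51.8 and 53.7 in FGR (41.4 ± 9.34, limma adjusted p = 0.0968). The Elmo1 region had 25.9, 47.5, 41.8 and 21.5 in Ctrl and 59.3, 52.0, 72.5 and 54.9 in FGR without overlap (25.5 ± 11.2, limma adjusted p = 0.283). As log2 pileup, both Mertk regions, 2 of the 3 Apbb1ip regions and the Dock10 region passed (limma adjusted p = 0.00317 to 0.0293), which is 5 of 21 (23.8%) against 5.26% of all 1674 and 6.79% of those without a start. Other engulfment genes with a region higher at an unadjusted p under 0.05 were Vav1, Arhgap24, Arhgap25, Cyfip1 and Dock4. Dock4 held 3 regions that did not move together, 1 higher (25.3 ± 11.4), 1 lower (-15.7 ± 6.3) and 1 in which the groups overlapped (-8.05 ± 6.51).

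**Figure D5:**
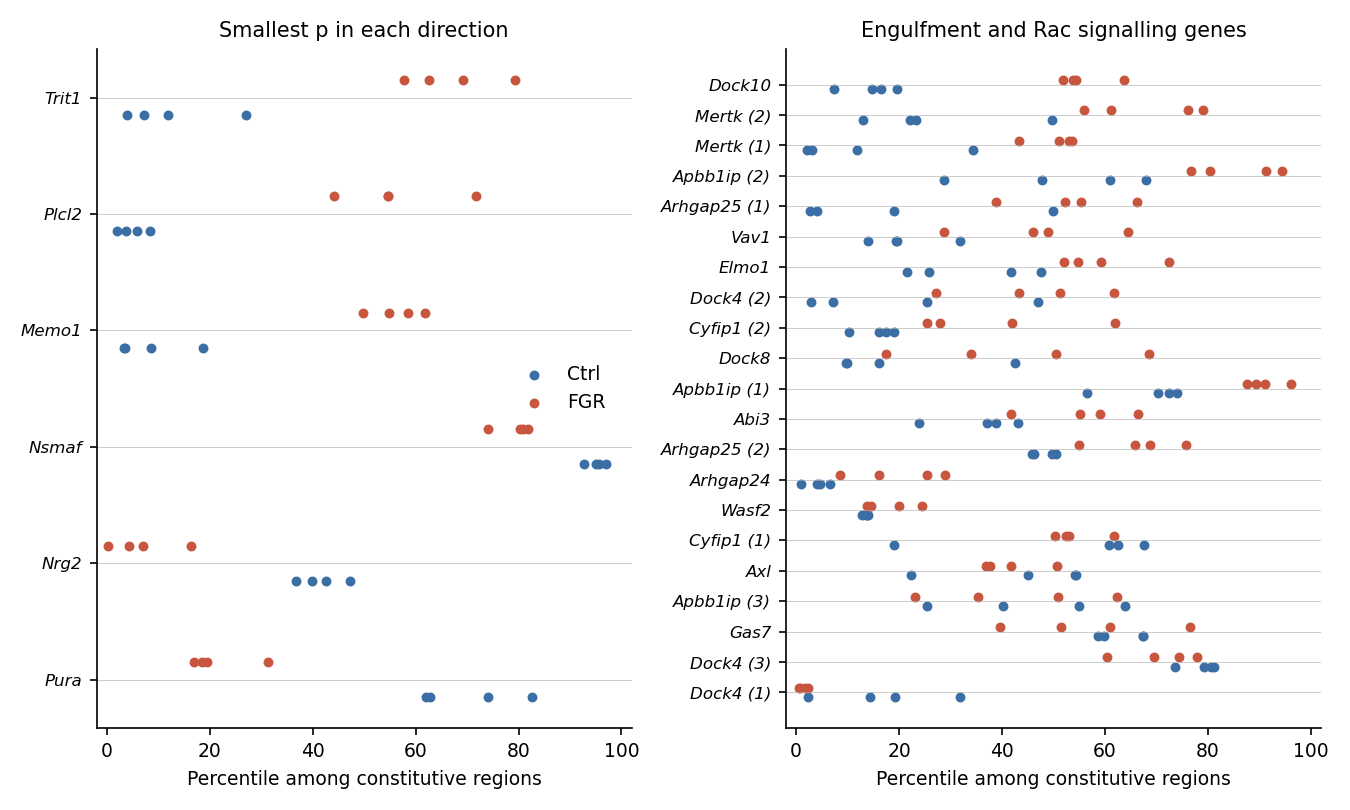
Percentile among constitutive regions (horizontal axis) of single regions, with 4 Ctrl points (blue) and 4 FGR points (red) on each line, for the 3 regions with the smallest p in each direction (left) and the 21 regions of engulfment and Rac signalling genes (right, numbered along the chromosome where a gene has several). Points of the groups are separate in all 6 regions on the left and in 10 of 21 on the right.

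Counts in the other lists are read against the 14.9% of all 1674 regions that were higher at an unadjusted p under 0.05. As log2 pileup, 5 of their regions passed, all higher in FGR, in Rasgrp3 (limma adjusted p = 0.00365), Fli1 (0.00953), Smad3 (0.0177), Itgb2 (0.0293) and Slc1a3 (0.039). These were 1 of 16 immune signalling (6.25%), 2 of 14 transcription factor (14.3%), 1 of 7 actin and 1 of 2 astrocyte regions. The share called higher on that scale was 5.26% of all 1674 regions and 6.79% of those without a start. With the engulfment list included, it was 10 of 88 listed regions (11.4%). Whether these shares differ was not tested. The 7 regions of homeostatic genes all had a higher mean in FGR, with a median difference of 4.23 points and 1 (14.3%) at an unadjusted p under 0.05. That one was the P2ry12 region at 59260739, with 32.4, 6.7, 74.6 and 55.1 in Ctrl and 69.4, 69.1, 69.2 and 90.7 in FGR, where Ctrl 3 lay within the FGR range (32.4 ± 13.4, limma adjusted p = 0.249). Csf1r stood at 91.8, 94.3, 98.6 and 93.5 in Ctrl and 91.9, 95.9, 98.1 and 98.3 in FGR, a difference of 1.5 ± 2.27 points. Of 14 regions in transcription factor genes 11 had a higher mean in FGR and 2 (14.3%) an unadjusted p under 0.05, in Fli1 and Smad3, a share close to that of all 1674. The second Fli1 region, 32516404 to 32517108 of chromosome 9, was separate at 29.4, 4.3, 20.1 and 42.8 in Ctrl against 68.8, 59.6, 54.9 and 77.0 in FGR (40.9 ± 11.6, limma adjusted p = 0.128). Fli1 encodes an ETS factor of blood cells. The internal start of Runx1 had 30.1, 48.5, 12.3 and 29.5 against 63.3, 45.7, 39.2 and 44.5, and the groups overlapped (18.1 ± 11.0, limma adjusted p = 0.439). Of the strongest regions of Mef2a and Mef2c, neither differed beyond its spread (-4.4 ± 6.75 points in Mef2a, limma adjusted p = 0.557 in Mef2c).

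Among 16 regions of immune receptor signalling genes 9 had a higher mean in FGR, and 3 (18.8%) an unadjusted p under 0.05. These were in Inpp5d, the lipid phosphatase SHIP1, in Inpp4b, another inositol phosphatase, and at the internal start of Rasgrp3, an activator of Ras. The Rasgrp3 region over that start, 75465141 to 75465861 of chromosome 17, had 10.1, 56.1, 54.9 and 16.9 in Ctrl and 76.4, 65.6, 67.1 and 81.8 in FGR (38.2 ± 12.7, limma adjusted p = 0.165), with no overlap. Of 9 regions of TGF-beta signalling genes 4 had a higher mean, with a median difference of -0.252 points, and 1 region each of Tgfbr2, the type 2 receptor (32.2 ± 12.6), and of Smad3, its signal transducer (limma adjusted p = 0.201), was higher at an unadjusted p under 0.05. Of 8 inflammatory regions 5 had a higher mean, and 1 (12.5%), in Fkbp5, a gene of a glucocorticoid-induced cochaperone, was higher at an unadjusted p under 0.05 (36.9 ± 11.3, limma adjusted p = 0.149). Of 8 regions of lysosome and lipid genes none reached that p in either direction. Among 7 regions of actin and adhesion genes, that of Itgb2, an integrin chain of leukocytes, was higher (29.9 ± 9.12) and 1 of Pxn, the focal adhesion protein paxillin, lower (-32.2 ± 11.0). Of the 2 Slc1a3 regions, the first had 7.7, 14.6, 30.03 and 27.3 in Ctrl and 66.2, 64.2, 44.7 and 64.5 in FGR (limma adjusted p = 0.116). Slc1a3 was the sole astrocyte gene of 11 with such a region, and no constitutive region lay at its ends. The part of astrocytes in it was not tested. Over all lists, 60 of 88 regions had a higher mean in FGR, against 1033 of all 1674, and 21 (23.9%) were higher at an unadjusted p under 0.05, 11 of them in the engulfment list.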

How the data were processed

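The deposited files are 1 narrowPeak list per library. Per the submitters' processing notes, the build was mm10 and the tools were MACS2 2.2.7.1, Bowtie2 2.4.5, Trim Galore 0.6.5, DiffBind 3.12.0 and SAMtools 1.3.1. Lists are per library, and per the file contents each peak has the authors' display score, fold ratio over background, −log10 p and −log10 q. The deposited score was not used, regions were ranked by −log10 q, and fold ratio and p gave back whole-number summit pileups (for all peaks, within 0.001). Gene spans and start windows came from RefSeq (GRCm38.p6). 1841 of 1841 overlapping windows of opposite strands were reverse complements. Percentiles were tested with limma 3.58.1 (R 4.3.3, trend, 8 libraries, Benjamini-Hochberg over 8840 regions), single values with exact permutation tests. On simulated data, limma was checked before use.

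The members, gene lists and tests were chosen with earlier results of these data known, and the split by start windows after seeing the data. Named regions follow a fixed rule: the 10 genes with most regions, the 8 with the highest lowest percentile, 3 per direction by p, those in 12 microglial genes and the 2 strongest per list. Further listed regions were named after their values were seen. Motifs around summits and exon or intron placement needed a genome and were not run. Alternatives varied ranking, thresholds, list length, overlap and libraries.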

Additional observations from a re-analysis of the deposited data

Results flagged for a closer look

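Among 44 groups of 4 libraries that were examined for a library far from the others, 2 had one, and chance alone gives about 1 in 20. In Ctrl, the median percentile of the 1674 regions among constitutive regions was 45.92 in Ctrl 3 against 39.91 to 40.52 in the other 3. In FGR, the P2ry12 region at 59260739 stood at 90.65 in FGR 4 against 69.15 to 69.36 in the other 3.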

How the results depend on the processing

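The number of regions was 1027 with −log10 q of at least 5, 1004 with equal lists, 657 with 50% of the region covered, 3163 without Ctrl 1 and 2 and 1684 to 2706 with 1 library left out. Regions called by limma numbered 0 by percentile, 24 by normal scores, 108 by log2 pileup (chosen after seeing the data), 1 with 50% covered, and 0 to 1 with 1 library left out (1 without Ctrl 4). The difference in median percentile was 5.37 without Ctrl 1 and 2 (exact p = 0.0667), 6.6 with pairs averaged (exact p = 0.333) and with the replicate block (exact p = 0.125), and 6.01 to 8.01 with 1 library left out (exact p = 0.0571 without any 1 FGR library). The number of these regions that held any of the 1000 strongest peaks differed by 22.5 without Ctrl 1 and 2 (exact p = 0.0667). It differed by 30.2 with pairs averaged (exact p = 0.333) and with the replicate block (exact p = 0.125). Against regions between genes the margin was -0.753 by fold, 0.325 with −log10 q of at least 5, 0.566 with equal lists, 0.677 without Ctrl 1 and 2, 1.28 with pairs averaged (exact p = 0.25) and 0.869 to 1.56 with 1 library left out. Against gene-end regions, where it was -4.84, it was the same with pairs averaged (exact p = 0.125), -8.5 by fold, -8.0 ranked among constitutive regions, -2.82 with −log10 q of at least 5 and -2.56 without Ctrl 1 and 2. The margin of regions over a start differed between the groups by -6.93 by fold, -11.6 with 50% covered, -11.5 without Ctrl 1 and 2, and -13.4 with pairs averaged (exact p = 0.333) and with the replicate block (exact p = 0.125). The replicate block, whose 4 pairs cannot give an exact p under 0.125, left 0 regions called by limma. No pairing by replicate number was seen. Deviations of same-numbered libraries correlated at -0.014 to 0.0014, against -0.04 to 0.041 for different numbers, and no Ctrl library correlated best with its own number. Such values cannot show whether samples were matched in the experiment. Median peak width, which differed by -15.2 bp, turned to 1.62 without Ctrl 1 and 2 and ran from -31.8 to 8.21 with 1 library left out (8.21 without Ctrl 1), and the number of peaks in these regions, which differed by 34.8 (exact p = 0.2), turned to -2.5 with equal lists. For 16 named regions under these settings, 241 values kept their direction and side of the threshold, 9 newly passed it and 6 changed sign, none of these past the threshold in either setting. The 6 were Spi1 (3.25 points) at -3.08 without Ctrl 3, -0.318 without FGR 1 and -2.37 without FGR 3 (-3.08 to 8.67 with 1 library left out), the Mef2c region at 83608968 (2.11) at -4.31 without Ctrl 3 (-4.31 to 6.35), the Mef2c region at 83517967 (14.5) at -0.000863 as log2 pileup, and Csf1r (1.5) at -3.5 by fold. The requirement that a peak cover 50% of the shorter of peak and region changed nothing, since each peak lies wholly in its region. The causes were not tested. Read depth is unknown, and the lists set what could be called.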
